A study of Homo sapiens with 12 samples.

Results

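The mitochondrial ribosomal protein genes were followed in WI-38 fibroblasts, a lung line with a diploid genome that can stop dividing and enter senescence when its DNA is damaged. The members were all protein-coding genes of the count files whose symbol has the form MRPL or MRPS followed by a number and, in some, a letter from A to C. In all, 76 of the 57773 genes in the files met this rule. Of these, 50 encode proteins of the large subunit (the MRPL genes together with MRPS18A and MRPS30, whose proteins are built into the large subunit) and 26 are counted with the small subunit. All 76 passed the filter on low counts and were among the 21518 genes tested.

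RNA was measured in 4 groups of 3 libraries. Proliferating cells carrying the control siRNA siCtrl received the vehicle DMSO for 8 days (siCtrl_Prolif). Senescent cells carrying siCtrl received 50 µM etoposide, a topoisomerase II poison that breaks DNA, for 8 days (siCtrl_Sen). The remaining groups received the same etoposide treatment after transfection with siRNA pools against NTRK2 (siNTRK2_Sen), which encodes the neurotrophin receptor TrkB, or against BDNF (siBDNF_Sen), which encodes its ligand. Every group, the proliferating cells included, was transfected, with siRNA at 25 nM. The cells are of a single line, each target was silenced with a single siRNA pool, and the labels do not tie libraries to cultures. The study states in general that its experiments were repeated independently with all groups kept together, but how this applies to each sequenced library is not given in the sources used here, so p-values measure the spread between these libraries. The comparisons ask how the genes differed between senescent and proliferating cells, and whether silencing either gene changed them in senescent cells.

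The mitochondrial ribosome (mitoribosome) translates the few messages of the mitochondrial genome, which encode core subunits of the respiratory chain and the ATP synthase. Its rRNAs are made inside the organelle, whereas its proteins are encoded in the nucleus, made in the cytosol and imported. Some of these proteins descend from those of bacterial ribosomes, and others are found only in mitochondria. The small subunit reads the message, and the large subunit joins the amino acids and releases the chain through an exit tunnel at the inner membrane.

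The levels below are CPM, the counts of a gene relative to those of its whole library, scaled by TMM, which corrects for the composition of each library. They are shares of the polyadenylated RNA and not amounts per cell, and in such bulk samples fewer cells with the mRNA and less mRNA per cell cannot be told apart. Libraries held between 31567912 and 72328151 counts assigned to genes, and the members had between 251 (MRPS31) and 8580 (MRPL51) counts each in a library, so none was near the limit of detection. A difference was called where edgeR's quasi-likelihood test gave a Benjamini-Hochberg adjusted p under 0.05 over all tested genes. The fibroblast markers COL1A1, COL1A2, COL3A1, VIM, THY1, PDGFRB and DCN together reached between 22930 and 33630 CPM in every library, while the epithelial markers EPCAM, CDH1 and KRT5 together stayed between 0.233 and 1.435 CPM. Of the blood markers, CD68, a lysosomal protein, went from a mean of 53.0 CPM in proliferating to 109 CPM in siCtrl-transfected senescent cells, with 77.5 CPM after siNTRK2 and 180 CPM after siBDNF, whereas PTPRC, which encodes the leukocyte antigen CD45, averaged 0.944 CPM in siCtrl_Sen and CD3E 0.105 CPM. The endothelial markers CDH5 and VWF together stayed under 2.60 CPM in every library. CDKN1A, which encodes the cell cycle inhibitor p21, averaged 936 CPM in siCtrl_Prolif, 2877 CPM in siCtrl_Sen, 2032 CPM in siNTRK2_Sen and 2793 CPM in siBDNF_Sen, and the proliferation gene TOP2A 105, 11.3, 24.3 and 12.3 CPM in that order. The proliferation gene MKI67 averaged 16.37, 1.277, 4.186 and 2.348 CPM in the same order of groups. The lamin gene LMNB1 averaged 39.59, 2.15, 3.295 and 1.936 CPM. The part of these marker differences in the changes below was not tested. BDNF mRNA averaged 162 CPM in siCtrl_Sen, 205 CPM in siNTRK2_Sen and 47.1 CPM in siBDNF_Sen, and fell with siBDNF by 1.79 on the log2 scale (edgeR adjusted p = 1.7e-18). The proliferating libraries held 9061, 11125 and 5671 BDNF counts among totals of 56773044, 72328151 and 38815444. The siCtrl_Sen libraries held 9046, 9098 and 9774 among 56918503, 57612422 and 58653356. NTRK2 was barely detected: it had 7, 15 and 10 counts in the siCtrl_Sen libraries, 10, 23 and 29 in siBDNF_Sen, 11, 1 and 1 in proliferating cells and 0 in each siNTRK2_Sen library. In these libraries its silencing could therefore be checked only at the limit of detection. The study also measured NTRK2 and BDNF mRNAs by RT-qPCR in siRNA-transfected WI-38 cells at early and late senescence.

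Mitochondrial ribosomal protein mRNAs were moderately abundant and unequal. In proliferating cells the member means ran from 8.38 CPM for MRPS31 to 119 CPM for MRPL51, with a median of 38.2 CPM, and in siCtrl-transfected senescent cells from 7.02 to 104 CPM for the same genes, with a median of 33.1 CPM. Levels of different genes can be compared only per length. Per kilobase of the canonical transcript, MRPL51, a large subunit protein found only in mitochondria, stood highest in proliferating cells at 133 CPM, followed by MRPS24 at 124 CPM, and MRPL42 stood lowest at 2.17 CPM. The value for MRPL42 rests on an annotated canonical transcript of 15557 bases, the longest among the members, so shorter transcripts in these cells would make it an underestimate. The genes lie on 21 chromosomes. On GRCh37, the build of the counts, the genes with the largest changes described below span the following positions: MRPL1 chr4:78783984-78873939 (plus strand), MRPS9 chr2:105654527-105716418 (plus strand), MRPL23 chr11:1968508-2005752 (plus strand), MRPL3 chr3:131181056-131221827 (minus strand), MRPL36 chr5:1798499-1801480 (minus strand), MRPL41 chr9:140446331-140447007 (plus strand) and MRPL17 chr11:6701616-6704571 (minus strand). The closest neighbours are MRPL46 and MRPS11, which face away from each other on chromosome 15 with 62 bases between them; neither was called in any comparison, with log2 fold changes in senescence of 0.01 and -0.03.

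To show what lies in front of genes that moved in opposite directions, the following are the last 150 bases before the annotated start of the 3 genes with the largest rise (MRPL36, MRPL41, MRPL17) and the 3 with the largest fall (MRPL1, MRPS9, MRPL3) in senescence among those with a window in the RefSeq table, on GRCh38.p14, written 5′ to 3′ on the strand of the gene. Capitals mark letters of the motifs searched, in either orientation: GCGCNTGCG for NRF1, a regulator of nuclear genes for mitochondrial proteins, CCGGAAG for ETS family factors, AAGATGGCG for YY1 and CACGTG, the E-box.
MRPL36 (chr5:1799838-1799987, minus strand): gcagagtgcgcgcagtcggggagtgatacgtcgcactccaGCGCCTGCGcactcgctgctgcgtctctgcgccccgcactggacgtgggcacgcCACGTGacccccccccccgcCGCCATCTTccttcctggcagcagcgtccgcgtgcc
MRPL41 (chr9:137551729-137551878, plus strand): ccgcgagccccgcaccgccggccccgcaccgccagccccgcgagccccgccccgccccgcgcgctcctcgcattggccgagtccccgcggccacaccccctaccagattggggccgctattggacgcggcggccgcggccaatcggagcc
MRPL17 (chr11:6683341-6683490, minus strand): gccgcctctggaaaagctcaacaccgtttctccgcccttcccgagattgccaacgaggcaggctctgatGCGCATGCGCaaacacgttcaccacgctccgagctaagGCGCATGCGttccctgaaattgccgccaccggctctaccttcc
MRPL1 (chr4:77862680-77862829, plus strand): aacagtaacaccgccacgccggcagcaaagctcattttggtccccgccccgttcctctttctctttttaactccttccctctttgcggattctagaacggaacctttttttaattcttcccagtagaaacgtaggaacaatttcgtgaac
MRPS9 (chr2:105037919-105038068, plus strand): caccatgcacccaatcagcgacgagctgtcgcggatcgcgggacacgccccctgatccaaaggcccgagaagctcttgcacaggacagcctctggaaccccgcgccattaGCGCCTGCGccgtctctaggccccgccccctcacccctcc
MRPL3 (chr3:131502972-131503121, minus strand): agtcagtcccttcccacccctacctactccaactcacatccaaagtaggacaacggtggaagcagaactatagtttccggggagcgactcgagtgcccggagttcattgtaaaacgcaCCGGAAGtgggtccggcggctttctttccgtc
MRPL36 holds letters of 3 of the motifs (NRF1, E-box and YY1). The first stretch of capitals in MRPL17 reads as the NRF1 letters on both strands at once, shifted by a base, and the second is a further copy. None of the searched letters stands in these 150 bases of MRPL41 or MRPL1.

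Promoter windows were found for 67 of the 76 genes. The ETS letters stood in the 250 bases before the start of 24 of them (35.8%), against 10.2% of the 27305 genes in the same table. The NRF1 letters stood in 10 of 67 (14.9% against 7.99%), the E-box in 7 (10.4% against 7.73%) and the YY1 letters in 3 (4.48% against 0.784%). By the call in senescence, the YY1 letters stood before 3 of the 11 genes that rose (MRPL32, MRPL36 and MRPL52), 0 of the 29 that fell and 0 of the 27 without a call. The NRF1 letters stood before 4 of 11, 4 of 29 and 2 of 27, and the ETS letters before 1 of 11, 11 of 29 and 12 of 27. The motif counts are descriptions of letters in a window, with no test. A further motif form, the exact GCGCATGCG, is a case of the NRF1 letters and was held by 3 of 67 (4.48% against 2.02%).

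Senescent cells had less of many mitochondrial ribosomal protein mRNAs than proliferating cells, and more of a smaller set. With siCtrl in both groups, 33 of the 76 members fell, 11 rose and 32 had no call, and their median log2 fold change was -0.09, against 0.02 over all tested genes. Senescence changed much of the transcriptome: 28.3% of all tested genes were called lower and 29.8% higher, so the share of members called lower (43.4%) stood above that background and the share called higher (14.5%) below it. No member changed by more than 1 on the log2 scale, whereas 16.7% of all tested genes did so with a call. The members' changes ran from -0.89 for MRPL1 to 0.60 for MRPL36.

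**Figure D1:**
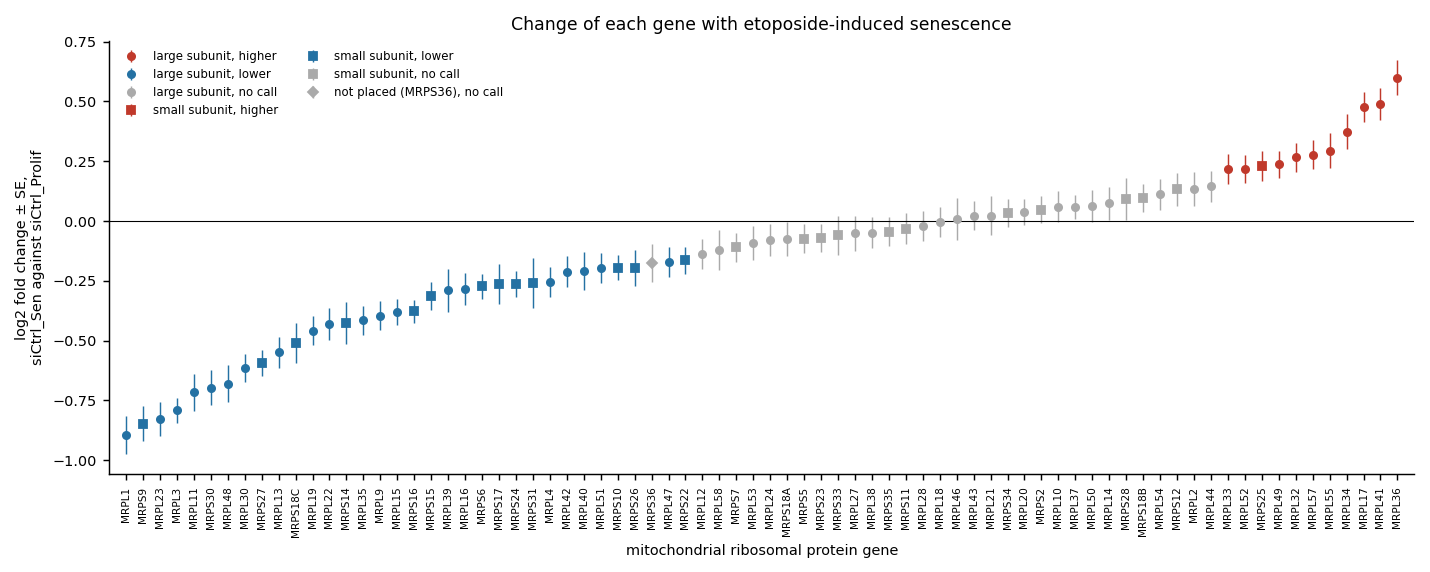
Log2 fold change of each of the 76 mitochondrial ribosomal protein genes in siCtrl_Sen against siCtrl_Prolif (y axis), sorted from lowest to highest (x axis). Points are edgeR estimates and bars their standard errors. Circles are large subunit genes, squares small subunit genes and the diamond MRPS36, which was not placed in a structural group. Red marks genes called higher (11), blue genes called lower (33) and grey genes without a call (32).

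The largest decreases were those of genes for core parts of the large subunit and for the small subunit protein MRPS9. MRPL1, the counterpart of the bacterial stalk protein L1, which borders the site where spent tRNA leaves, measured 17.9, 17.3 and 15.8 CPM in the proliferating libraries and 9.21, 9.23 and 9.02 CPM in the senescent ones. It fell by 0.89 ± 0.08 on the log2 scale (SE, n = 3 against 3, edgeR adjusted p = 6.3e-10). Corrected for transcript length and GC content it stood at -0.5531 and was no longer the largest decrease, with MRPL23 (-0.8643), MRPL11 (-0.8211) and MRPS9 (-0.8098) then lowest. The lowest proliferating library stood far above the highest senescent one. MRPS9, the counterpart of bacterial S9, whose tail reaches the peptidyl-tRNA site, measured 26.7, 25.9 and 27.9 CPM against 15.1, 14.6 and 15.01 CPM. It fell by 0.85 ± 0.07 (edgeR adjusted p = 3.05e-10), again without overlap between the groups.

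MRPL23, at the exit of the peptide tunnel, went from 47.4, 48.6 and 52.4 CPM to 28.7, 24.8 and 30.2 CPM, a log2 fold change of -0.83 ± 0.07 (edgeR adjusted p = 2.7e-10). MRPL3, the counterpart of bacterial L3 near the peptidyl transferase centre, measured 92.8, 97.9 and 98.4 CPM in proliferating cells and 57.5, 54.7 and 55.0 CPM in senescent cells (log2 fold change -0.79 ± 0.05, edgeR adjusted p = 2.4e-12). MRPL11, at the base of the stalk that binds translation factors, went from 31.4, 37.5 and 39.9 CPM to 22.1, 20.7 and 23.3 CPM (-0.72). The groups did not overlap for any of these genes. The next largest decreases were those of MRPS30 (-0.70), MRPL48 (-0.68), MRPL30 (-0.61), MRPS27 (-0.59), a pentatricopeptide repeat protein of the small subunit, and MRPL13 (-0.55).

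The increases were led by genes of the large subunit. MRPL36, the counterpart of bacterial L36 and among the smallest proteins of the ribosome, went from 28.1, 33.4 and 32.7 CPM to 48.6, 45.5 and 48.7 CPM, a log2 fold change of 0.60 ± 0.07 (edgeR adjusted p = 9.8e-08). MRPL41, also known as a partner of the apoptosis regulator BCL2, went from 42.1, 37.2 and 44.2 CPM to 60.1, 54.6 and 58.2 CPM (0.49 ± 0.07, edgeR adjusted p = 6.6e-07). MRPL17, at the tunnel exit, went from 56.3, 56.1 and 60.5 CPM to 85.0, 71.5 and 84.1 CPM (0.48 ± 0.06, edgeR adjusted p = 3.95e-07). In each of these genes every senescent library stood above every proliferating one. MRPL34, MRPL55, MRPL57, MRPL32, MRPL49, MRPS25 and MRPL52 rose by 0.37, 0.29, 0.28, 0.27, 0.24, 0.23 and 0.22, in that order, and MRPS25 was the only small subunit gene called higher.

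**Figure D2:**
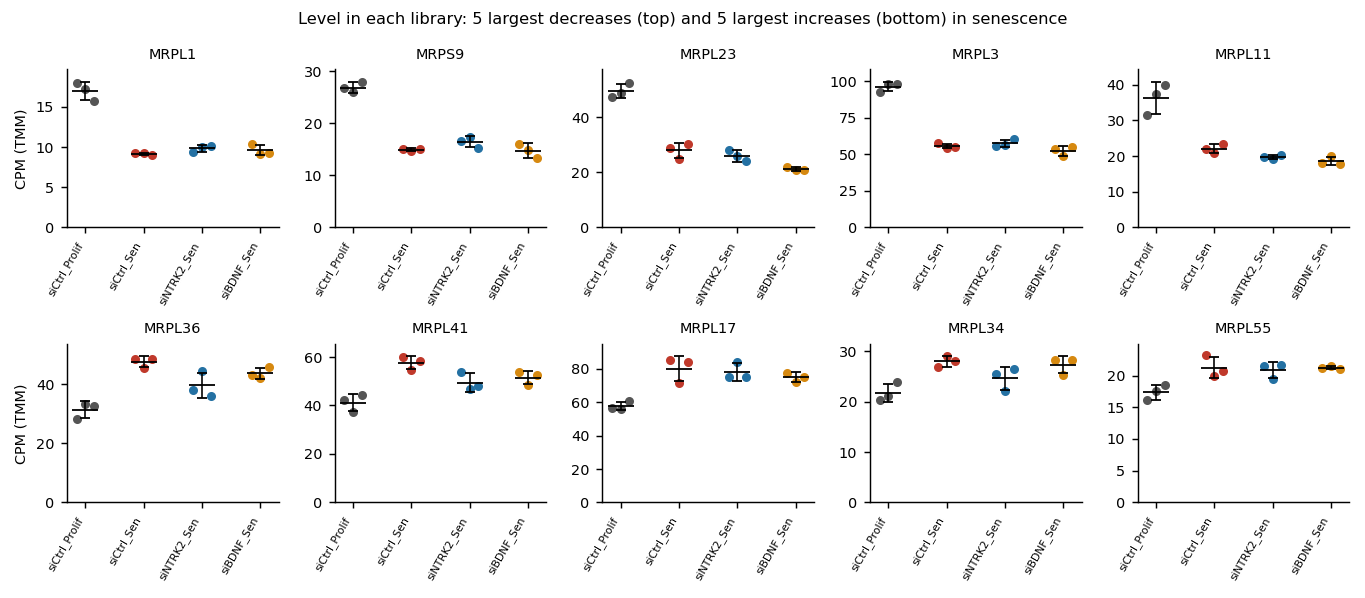
Level in each library, in TMM-scaled CPM (y axes, starting at 0), of the 5 members with the largest decrease in senescence (top) and the 5 with the largest increase (bottom), in the 4 groups (x axes). Points are libraries, and bars are the group mean ± SD of 3 libraries: MRPL1 sat between 15.8 and 17.9 CPM in proliferating cells and at or below 10.35 CPM in every senescent library.

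Small subunit genes with a bacterial counterpart had the lowest median of the structural groups in senescence. Of these 15 genes, 9 fell (60%, beside 28.3% of all tested genes) and none rose (median log2 fold change -0.26), with MRPS9, MRPS18C (-0.51), MRPS14 (-0.43) and MRPS16 (-0.38) lowest. Among the 10 small subunit genes specific to mitochondria, 4 fell (40%), 1 rose and the median was -0.07. Of the 30 large subunit genes with a bacterial counterpart, 14 fell and 6 rose (46.7% and 20%, median -0.11), and of the 20 specific to mitochondria, 6 fell and 4 rose (30% and 20%, median -0.02). Calls in both directions thus occurred inside the large subunit. Of the 5 measured genes around the stalk that binds translation factors, which is separate from the L1 stalk of MRPL1, MRPL11 alone was called, and MRPL10 (0.06), MRPL12 (-0.14), MRPL53 (-0.09) and MRPL54 (0.11) were not. At the tunnel exit MRPL17 rose while MRPL23, MRPL22 (-0.43) and MRPL47 (-0.17) fell and MRPL24 (-0.08) had no call. With fold changes corrected for transcript length and GC content, MRPL47 was instead at 0.12, without a call. MRPS36, whose product is now also known as a subunit of the 2-oxoglutarate dehydrogenase complex, had no call in any comparison.

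Genes that act with the mitoribosome moved in both directions, beside 28.3% of all tested genes called lower and 29.8% higher. The mitoribosome proteins with other symbols were mixed: DAP3, a GTP-binding protein of the small subunit, rose by 0.30 and AURKAIP1 by 0.22, whereas PTCD3 fell by 0.32, and GADD45GIP1 (-0.02) and CHCHD1 (-0.12) had no call. Of 17 mitochondrial aminoacyl-tRNA synthetases, which load tRNAs with amino acids, 9 fell and 2 rose (52.9% and 11.8%, median -0.24), with NARS2 (-0.80) among those that fell and AARS2 (0.43) and MARS2 (0.28) rising. Of 19 genes for assembly and rRNA modification, 8 fell and 4 rose (42.1% and 21.1%, median -0.09). The GTPase GTPBP10 (-0.71) and FASTKD2 (-0.60), which acts on the large subunit rRNA, fell most, and MPV17L2 (0.80), an assembly factor, rose most. Among 11 translation factors, 4 fell and 2 rose (36.4% and 18.2%, median -0.04), with the initiation factor MTIF2 at -0.49 and the recycling factor GFM2 at 0.38.

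The RNAs that the mitoribosome contains and translates went the other way from most of its protein genes that were called. The 13 messages of the mitochondrial genome were all higher in senescent cells (median log2 fold change 0.95). Together they took between 13800 and 17550 CPM in proliferating and between 27040 and 29910 CPM in siCtrl-transfected senescent libraries. Its rRNAs MT-RNR1 (1.58) and MT-RNR2 (1.29) were higher as well, although poly(A) selection recovers rRNA incompletely. The 76 members together took 3009, 3106 and 3230 CPM in the proliferating libraries and 2965, 2723 and 2941 CPM in the senescent ones, so every senescent library lay below every proliferating one in this sum. The members' median log2 deviation from their mean over all libraries overlapped between the groups, at 0.0582, 0.1144 and 0.1788 in the proliferating and 0.0491, -0.0657 and 0.0600 in the senescent libraries. Of 84 tested genes for proteins of the cytosolic ribosome, 33 fell and 7 rose (39.3% and 8.33%), with a median of -0.07, near that of the members.

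**Figure D3:**
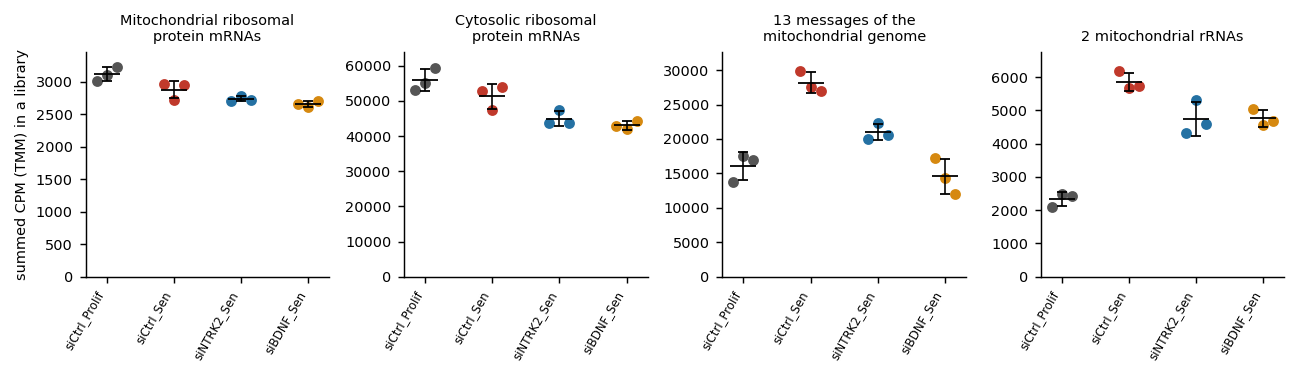
Summed TMM-scaled CPM in each library (y axes, starting at 0) of the mitochondrial ribosomal protein genes, the cytosolic ribosomal protein genes, the 13 messages of the mitochondrial genome and its 2 rRNAs, by group (x axes). Points are libraries and bars the mean ± SD of 3 libraries: the members' sum was between 3009 and 3230 CPM in siCtrl_Prolif, 2723 and 2965 in siCtrl_Sen, 2709 and 2778 in siNTRK2_Sen and 2612 and 2700 in siBDNF_Sen.

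Most senescence calls did not rest on a single library or setting: 36 of the 44 were kept in all of the 15 alternatives that keep the threshold on the adjusted p alone (other tools, scalings, filters and models, and leaving out each of the 6 libraries compared). The number 15 has this meaning below as well, since an added threshold of 1 on the log2 fold change left 0 members called in any comparison. Scaled by library totals only, 28 members were lower and 16 higher (36.8% and 21.1%, beside 25.9% and 31.8% of all genes), and with the correction for length and GC, 34 and 16 (44.7% and 21.1%, beside 29.5% and 30.5%). With at least 10 counts required in every library, 29 were lower and 15 higher (38.2% and 19.7%, beside 32.1% and 30.2%), and the distance of the members' median from that of all genes was -0.0429, against -0.1106 with the filter used here. The correction made some changes smaller: among the genes named above besides MRPL1, MRPS18C stood at -0.17, MRPL13 at -0.33, MRPS14 at -0.23, MRPL22 at -0.25, MRPL49 at 0.13 and MRPL52 at 0.13, all still called. Over the 76 members the Spearman correlation of the log2 fold change in senescence was -0.268 with transcript length and 0.378 with GC content, against -0.049 and 0.165 over all tested genes with a canonical transcript. Leaving out a library, the median stood between -0.14 (without siCtrl_Prolif replicate 1) and -0.06 (without siCtrl_Sen replicate 2), and at -0.13 without siCtrl_Sen replicate 1 or 3.

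Silencing NTRK2 in senescent cells was accompanied by small decreases in some members. Against siCtrl-transfected senescent cells, 14 members fell, 2 rose and 60 had no call, and the median log2 fold change was -0.05, against -0.0024 over all tested genes. The share of members called lower was 18.4% beside 10.0% of all tested genes, and the share called higher was 2.63% beside 11.1%. All called changes were under 0.30 on the log2 scale, and 0 members changed by more than 1, beside 0.957% of all genes tested. The median moved with single libraries, to -0.0249 without siCtrl_Sen replicate 1, -0.0299 without its replicate 3, -0.0332 without siNTRK2_Sen replicate 1 and -0.0861 without siCtrl_Sen replicate 2.

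The decrease was largest for MRPS33, a small subunit protein specific to mitochondria, which went from 27.9, 25.0 and 27.0 CPM to 21.6, 24.0 and 19.8 CPM (log2 fold change -0.29 ± 0.08, edgeR adjusted p = 0.012). MRPL36 followed, from 48.6, 45.5 and 48.7 CPM to 38.1, 44.5 and 36.1 CPM (-0.27 ± 0.07, edgeR adjusted p = 0.0081). The siNTRK2 library at 44.5 CPM came close to the siCtrl range, and the groups did not overlap. MRPS18B, of the small subunit, went from 57.9, 49.5 and 56.4 CPM to 43.2, 46.3 and 47.0 CPM (-0.26 ± 0.06, edgeR adjusted p = 0.0020). The other 7 of the 10 largest decreases were those of MRPL53 (-0.25), MRPL49 (-0.24), MRPL28 (-0.23), MRPS24 (-0.23), MRPL10 (-0.22), MRPL54 (-0.22) and MRPL41 (-0.22). MRPL10, MRPL53 and MRPL54 belong to the stalk region, where 3 of 5 genes fell (median -0.22). None of these 3 calls was kept without siCtrl_Sen replicate 1. That of MRPL54 was also lost with the length and GC offset. That of MRPL10 was lost with this offset combined with the replicate number as a block. Of the 20 large subunit genes specific to mitochondria 7 fell (35%, median -0.11), of the 30 with a bacterial counterpart 3 fell and 2 rose (10% and 6.67%), and of the small subunit genes 4 of 26 fell (15.4%), beside 10.0% lower and 11.1% higher among all tested genes.

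MRPL30 and MRPL35, both of the large subunit, were the members that rose with siNTRK2. MRPL30 went from 26.1, 25.7 and 25.9 CPM to 29.7, 30.9 and 28.8 CPM (0.20 ± 0.06, edgeR adjusted p = 0.015), and MRPL35 from 25.2, 25.2 and 26.5 CPM to 28.0, 29.7 and 29.7 CPM (0.18 ± 0.06, edgeR adjusted p = 0.034). With length and GC corrected for, MRPL30 stood at 0.13 (edgeR adjusted p = 0.0819) and MRPL35 at 0.11 (edgeR adjusted p = 0.166), without a call. The MRPL35 call was kept in 8 of the 15 alternatives and was also lost with only the 2 groups compared and without siCtrl_Sen replicate 1 or 2 or siNTRK2_Sen replicate 2 or 3, whereas that of MRPL30 was kept in 13. In proliferating cells MRPL30 had measured 39.7, 40.5 and 38.5 CPM, and MRPL35 33.6, 35.6 and 33.2 CPM, so both stayed below that level in every siNTRK2 library. MRPL36, MRPL41 and MRPL49 had risen in senescence and fell with siNTRK2. These comparisons share the siCtrl_Sen libraries, so a deviation of those libraries would give opposite signs in both.

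Silencing BDNF in senescent cells was likewise accompanied by small decreases. Here 19 members fell, 1 rose and 56 had no call, with a median of -0.11 against 0.0040 over all tested genes. The share called lower was 25.0%, beside 10.2% of all tested genes, and the share called higher 1.32%, beside 10.3%. No member, and 0.609% of all tested genes, changed by more than 1.

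MRPL23 had the largest decrease: its 28.7, 24.8 and 30.2 CPM in siCtrl_Sen compared with 22.1, 20.8 and 20.8 CPM in siBDNF_Sen (-0.40 ± 0.07, edgeR adjusted p = 3.0e-04). It had already fallen from proliferation to senescence. MRPL54, of the stalk region, went from 28.3, 25.9 and 27.4 CPM to 21.6, 20.2 and 22.0 CPM (-0.36 ± 0.06, edgeR adjusted p = 0.000265). MRPL37, a large subunit protein specific to mitochondria, went from 102, 95.7 and 104 CPM to 79.3, 81.8 and 84.1 CPM (-0.30 ± 0.05, edgeR adjusted p = 1.4e-04). In these genes every siBDNF library lay below every siCtrl library, and the calls were kept in all 15 alternatives. MRPL40 (-0.28), MRPS33 (-0.27), MRPL11 (-0.25), MRPL58 (-0.24), a peptidyl-tRNA hydrolase that frees stalled ribosomes, MRPS34 (-0.24), MRPL28 (-0.23) and MRPL43 (-0.22) made up the rest of the 10 largest decreases. MRPS6, the counterpart of bacterial S6, was the member that rose, from 37.9, 36.2 and 38.6 CPM to 41.5, 41.2 and 43.8 CPM (0.17 ± 0.05, edgeR adjusted p = 0.028). By structure, 8 of the 20 large subunit genes specific to mitochondria fell (40%, median -0.16), 7 of the 30 with a bacterial counterpart (23.3%, median -0.10) and 4 of the 26 small subunit genes (15.4%, median -0.08), beside 10.2% of all tested genes.

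Both siRNA comparisons use the same siCtrl_Sen libraries, so their calls are not independent. The members called lower in each stood at -0.29 with siNTRK2 and -0.27 with siBDNF for MRPS33, -0.22 and -0.36 for MRPL54, and -0.18 and -0.30 for MRPL37. MRPL28 (-0.23 and -0.23), MRPS34 (-0.22 and -0.24), MRPL51 (-0.20 and -0.21) and MRPL43 (-0.20 and -0.22) had values close to each other. With the offset for length and GC described below, MRPL37, MRPL43, MRPL54 and MRPS34 had no call with siNTRK2 (edgeR adjusted p of 0.0516, 0.0926, 0.0791 and 0.0517), and MRPL28 and MRPL43 had none with siBDNF (0.0574 and 0.0934).

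**Figure D4:**
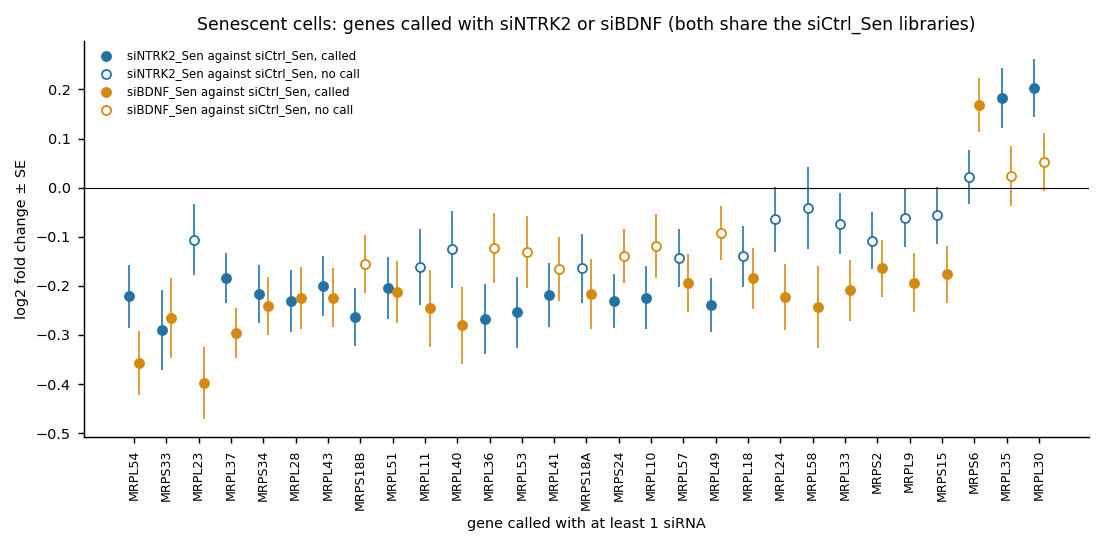
Log2 fold changes (y axis, with standard errors) of the members called with at least 1 siRNA (x axis, sorted by the sum of both values), for siNTRK2_Sen (blue) and siBDNF_Sen (orange) against the same siCtrl_Sen libraries. Filled points are called and open points are not; values ran from -0.40 (MRPL23, siBDNF) to 0.20 (MRPL30, siNTRK2).

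The siRNA calls depended on the control libraries. The members' sum was 2965, 2723 and 2941 CPM in the siCtrl_Sen libraries, so replicate 2 lay below the others, within the range of the siNTRK2_Sen libraries (2709 to 2778 CPM) and above that of siBDNF_Sen (2612 to 2700 CPM). Without siCtrl_Sen replicate 1, siNTRK2 had 5 members lower and 1 higher and siBDNF 4 lower and 0 higher. The shares called lower were then 6.58% and 5.26%, beside 5.91% and 6.69% of all tested genes. Without siCtrl_Sen replicate 3, siNTRK2 had 7 lower and 2 higher (9.21% lower, beside 5.64%) and siBDNF 6 lower and 1 higher (7.89%, beside 6.36%). Without siCtrl_Sen replicate 2, they had 15 and 1 (19.7% lower, beside 9.74%), and 26 and 0 (34.2%, beside 10.1%). Leaving out a siBDNF library gave 11 lower and 0 higher without replicate 1 (14.5% lower, beside 6.94%) and 12 and 0 without replicate 3 (15.8%, beside 8.09%). Without siBDNF_Sen replicate 2 there were 5 and 1, and the share called lower (6.58%) was close to that of all tested genes (6.07%). The siBDNF median changed less than the number of calls: it was -0.0901, -0.1028 and -0.0949 without siCtrl_Sen replicate 1, siCtrl_Sen replicate 3 and siBDNF_Sen replicate 2, and -0.1558 without siCtrl_Sen replicate 2. Calls that held in all 15 alternatives were those of MRPL49, MRPS18B and MRPS24 with siNTRK2 and of MRPL23, MRPL37 and MRPL54 with siBDNF.

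Transcript length and GC content moved with these differences. The canonical transcripts of the members had a median length of 1242 bases, against 2580 bases for tested genes with a canonical transcript, and a median GC content of 48.9% against 48.7%. Over the 20084 tested genes with a canonical transcript, the Spearman correlation of the log2 fold change with length was 0.167 for siNTRK2 and 0.275 for siBDNF, and with GC content -0.175 and -0.214. Over the 76 members it was 0.394 and 0.339 with length and -0.574 and -0.476 with GC content. These are descriptions across genes measured in the same libraries. With an offset for length and GC, siNTRK2 had 11 members lower and 3 higher, 14.5% lower beside 11.6% of all tested genes, and the members' median of -0.0122 was near the -0.0064 of all genes. With siBDNF there were 13 and 1, 17.1% lower beside 10.9%, and the median was -0.06. Scaled by library totals only, siBDNF had 7 lower and 2 higher (9.21% lower, beside 6.45%). That scaling moved the median of all tested genes from 0.0040 to 0.0609, and the members' median stayed 0.11 below it, as in the TMM-scaled fit. The part of length, GC content or library composition in the siRNA differences was not tested further.

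Other genes of mitochondrial translation were called in both directions with the siRNAs, beside 11.1% of all tested genes higher and 10.0% lower with siNTRK2, and 10.3% and 10.2% with siBDNF. Of the 5 mitoribosome proteins with other symbols, AURKAIP1 (-0.16) and GADD45GIP1 (-0.18) fell and PTCD3 (0.26) rose with siNTRK2, and DAP3 (-0.23) and GADD45GIP1 (-0.20) fell with siBDNF. Of the 17 tRNA synthetases, 1 rose (AARS2, 0.19) and 1 fell (RARS2, -0.18) with siBDNF (5.88% each). Of the 19 assembly and modification genes, 3 rose (15.8%) and 1 fell (5.26%) with each siRNA. FASTKD2 rose by 0.36 and 0.32 and GTPBP10 by 0.42 and 0.30 with siNTRK2 and siBDNF, and both had fallen in senescence. MALSU1, an assembly factor of the large subunit, rose by 0.16 with each, MPV17L2 fell with siNTRK2 by 0.37 and C1QBP with siBDNF by 0.20. Of the 11 translation factors, 2 fell with each siRNA (18.2%). These were TUFM (-0.20 and -0.16), the elongation factor that brings charged tRNA to the ribosome, and MTFMT (-0.33 and -0.26). MTFMT makes the initiator formylmethionyl-tRNA. With siNTRK2, 1 of these 11 genes was called higher (9.09%, highest value 0.26), and MTIF2 stood at 0.18. The mitochondrial messages were lower with siNTRK2 in 13 of 13 cases (median -0.47) and with siBDNF in 12 of 13 (median -0.97). Cytosolic ribosomal protein genes fell in 56 of 84 cases with siNTRK2 (median -0.17) and in 74 of 84 with siBDNF (median -0.26), a larger share than among the members, although the difference between the lists was not tested.

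**Figure D5:**
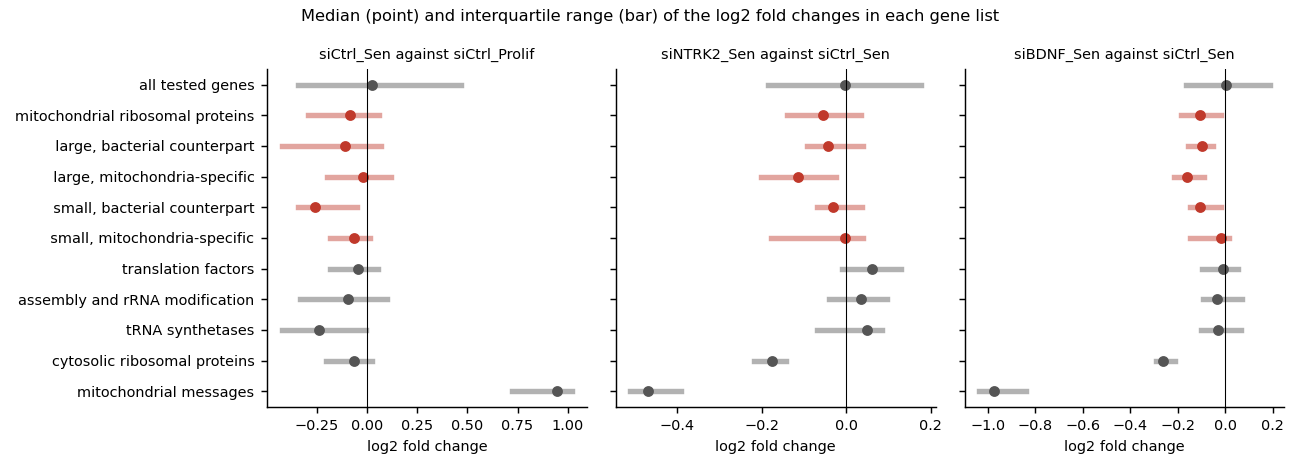
Median (point) and interquartile range (bar) of the log2 fold changes (x axes) of the members, their structural groups and other gene lists (y axis) in 3 comparisons, with scales that differ between panels. The members' medians were -0.09, -0.05 and -0.11, those of the mitochondrial messages 0.95, -0.47 and -0.97.

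The silenced groups were compared with each other directly, which does not use the siCtrl_Sen values in the contrast. There 5 members (6.58%) were higher in siNTRK2_Sen than in siBDNF_Sen and 0 lower, beside 8.84% of all tested genes higher, 7.86% lower and 1.16% changed by more than 1. The median log2 fold change of the members was 0.06. At an unadjusted p under 0.05, edgeR gave 19 members higher and 3 lower (25.0% and 3.95%, beside 14.9% and 14.2% of all tested genes), and DESeq2 called 5 higher and 1 lower at its adjusted p. MRPL48, a large subunit protein specific to mitochondria, measured 14.6, 16.2 and 15.4 CPM with siNTRK2 and 11.9, 12.97 and 12.1 CPM with siBDNF (0.32 ± 0.08, edgeR adjusted p = 0.0064). MRPL23 measured 28.0, 25.8 and 23.9 CPM against 22.1, 20.8 and 20.8 CPM (0.29 ± 0.07, edgeR adjusted p = 0.0065). In both, every siNTRK2 library stood above every siBDNF library, and the calls were kept in all 15 alternatives. MRPS14 (0.26), MRPL22 (0.24) and MRPS7 (0.17) were also higher with siNTRK2, with calls kept in 9, 12 and 7 of the 15 alternatives. Without siNTRK2_Sen replicate 2 there were 2 members higher and 1 lower (2.63% and 1.32%, beside 7.42% and 5.91% of all tested genes), and without siBDNF_Sen replicate 1 there were 2 and 0, without its replicates 2 or 3 there were 3 and 0, beside 6.29%, 6.49% and 5.58% higher among all genes. With library totals only 3 were higher and 2 lower (3.95% and 2.63%, beside 6.27% and 10.3%), and with the offset for length and GC 7 and 4 (9.21% and 5.26%, beside 11.3% and 9.73%). MRPS7 had no call against siCtrl_Sen with either siRNA, at 0.15 and -0.02.

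Reads of some members could be shared with other genes. The files list 73 pseudogene copies of mitochondrial ribosomal protein genes, of which 37 had no count in any library and 3 passed the low-count filter. Copies of MRPS31 together held 62.9% as many counts as MRPS31 itself, and copies of each other member under 1%. MRPS31, the member with the lowest counts, is therefore uncertain; its decrease in senescence (-0.26, edgeR adjusted p = 0.035) was kept in 7 of 15 alternatives. On the same strand, 72.8% of the exon bases of MRPL53 lie in exons of CCDC142, 69.5% of those of MRPL12 and 41.1% of those of MRPL38 in genes without a symbol in the table, 23.2% of those of MRPS24 in the readthrough gene URGCP-MRPS24, 22.4% of those of MRPS17 in a neighbouring gene and 21.1% of those of MRPL33 in BABAM2. On the opposite strand MRPS18A shares 50.9% with RSPH9, MRPS18C 40.2% with ABRAXAS1, MRPS25 39.1% with NR2C2, MRPS34 31.2% with EME2, MRPL51 27.6% with NCAPD2 and MRPS9 20.3% with its antisense gene MRPS9-AS1, and MRPS22 (38.9%) and MRPL43 (34.0%) overlap a gene there as well. These are the members that share over 20% on either strand. How reads on shared or opposite-strand bases were assigned is not given in the sources used here.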

How the data were processed

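Per the labels, RNA was purified from WI-38 cultures, poly(A) libraries were made with a stranded mRNA kit, and reads were demultiplexed with bcl2fastq 2.20.0.422, trimmed with cutadapt, aligned with STAR 2.4.0j to hg19 (GRCh37) and counted per gene with featureCounts 1.6.4. The values the authors deposited are these raw counts, in a table per library. The strand and multimapping settings are not given in the sources used here. Every sample had a group in the labels, and no replicate pair had identical values.

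Identifiers were paired with symbols through a table of gene names (55538 of 57773 matched), and MRPL45 and MRPS21 were paired with no gene. Transcript lengths and GC content are those of the GENCODE canonical transcript on GRCh37, and promoters are RefSeq windows on GRCh38.p14. The counts were filtered by edgeR's expression filter over the 4 groups, scaled by TMM and fitted in 1 quasi-likelihood model over all 12 libraries (R 4.3.3, edgeR 4.0.16), with Benjamini-Hochberg adjustment over the 21518 genes tested. Calls needed an adjusted p under 0.05. On data simulated for the comparison of siNTRK2_Sen with siCtrl_Sen (20897 genes), 78 of 100 genes changed by 0.5 and 94 of 100 changed by 1 (log2) were called, with 6 false calls. The members changed by less than 0.5 in that comparison, so these shares do not describe changes of their size.

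Alternatives were the DESeq2 1.42.0 Wald test, other scalings (DESeq2 size factors, library totals), other filters (none, at least 10 counts in every library), a fit of the groups compared only, the replicate number as a block, an offset for length and GC content, an added threshold of 1 on the log2 fold change, and leaving out each library. The text names, per comparison, up to 10 called members with the largest change in each direction, members called with both siRNAs, the highest and lowest member, and examples of role lists. The members, lists and motifs were chosen with earlier results of these data known. Genes that overlap or are copies of members were named by the same rule. Some results of the gene lists are not reported here.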

Additional observations from a re-analysis of the deposited data

Results flagged for a closer look

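In senescent cells, 5 members differed between the effects of the siRNAs, by a direct edgeR test of siNTRK2_Sen against siBDNF_Sen with Benjamini-Hochberg adjustment. They are 6.58% of the members, all higher with siNTRK2, beside 8.84% of all tested genes higher and 7.86% lower, a share of members below that of all genes in each direction. The effect of siNTRK2 minus that of siBDNF was 0.32 on the log2 scale for MRPL48 (adjusted p = 0.0064), 0.29 for MRPL23 (0.0065), 0.26 for MRPS14 (0.046), 0.24 for MRPL22 (0.014) and 0.17 for MRPS7 (0.047). MRPL23 stood at -0.40 after siBDNF against siCtrl_Sen (adjusted p = 3.0e-04) and at -0.11 after siNTRK2 (adjusted p = 0.33). MRPL22 stood at 0.19 after siNTRK2 (adjusted p = 0.051) and at -0.06 after siBDNF (0.64). In all 5, every library of siNTRK2_Sen lay above every library of siBDNF_Sen. This is no separate support, since the 5 were picked by a call on these same libraries. Members without a call, such as MRPL13 and MRPL15, did not overlap either, and the share over all tested genes was not counted. The calls of MRPL48 and MRPL23 were kept in all 15 alternatives, those of MRPS14, MRPL22 and MRPS7 in 9, 12 and 7.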

How the results depend on the processing

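No median of the members over any comparison changed sign in the alternatives run. With the added threshold of 1 on the log2 fold change, 0 members were called in each of the 4 comparisons. With library totals only, siBDNF had 9 calls and a median of -0.0501, while the median of all tested genes moved to 0.0609, so the distance between them was -0.1110 (-0.1119 with TMM). Its median was -0.0597 with the length and GC offset together with the replicate block. In siNTRK2_Sen against siBDNF_Sen, 8 members were called with only the 2 groups compared, 11 with the length and GC offset (7 higher, 4 lower), and 13 with that offset and the replicate block (8 and 5). The shares of all tested genes called higher and lower rose as well, from 8.84% and 7.86% to 11.3% and 9.73% with the offset and 11.4% and 9.81% with the block added. MRPL47 turned from -0.17 to 0.12 in senescence with the offset, alone or with the block. Leaving out single libraries gave 42 to 44 calls and medians of -0.1422 to -0.0573 in senescence, 6 to 16 calls with siNTRK2, 4 to 26 with siBDNF and 2 to 7 between the siRNAs. For these counts the cause was not tested, beyond the smaller number of libraries.

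Same-numbered libraries of different groups shared little deviation: the correlation of their deviations averaged 0.00758 (-0.0614 to 0.0739), beside -0.00385 for different numbers. Whether same-numbered libraries came from the same experiment cannot be told from these values. With the replicate block, 45, 17, 21 and 5 members were called in the 4 comparisons.

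The part of counting error in the spread between libraries was not measured. Each group has only 3 libraries and the labels name no batch.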
